A study of Mus musculus with 22 samples.

Results

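Heat shock proteins and chaperones are described here through 45 genes, named in a list drawn up by function, with earlier results of these data known. All 45 were among the 37786 genes of the count table, and all 45 reached 10 counts in 10 mice or more, a minimum that 17524 genes reached. The list holds 2 heat shock factors, 9 cytosolic Hsp70 and Hsp110 proteins, 2 cytosolic Hsp90 proteins, 3 small heat shock proteins, 3 mitochondrial chaperones, 8 cytosolic J proteins, 3 cytosolic co-chaperones and 15 proteins of the endoplasmic reticulum. RNA was sequenced from bulk tissue of the bilateral anterior cingulate cortex (ACC) of 22 male C57BL/6J wildtype mice. The 12 control mice (ctrl) and the 10 stimulated mice (stim) both received AAV5-CaMKIIa-ChR2(H134R)-EYFP bilaterally in the basolateral amygdala (BLA) and a unilateral optic fiber in the ACC, so that light reaches the axons that BLA neurons send to the ACC. The opsin was under the CaMKIIa promoter, so it was carried by BLA neurons in which that promoter is active and not by the ACC cells that make up the tissue. Mice were 8 weeks old at the start, and were housed singly once the fiber was in place. Stimulated mice received 9 sessions of 20 minutes over 3 weeks, controls went through the same procedure with the light off, and tissue was taken 48 hours after the last session. The comparison asks whether repeated activation of the BLA-ACC pathway left a change in the chaperone genes of the ACC.

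Chaperones bind unfolded or partly folded proteins and keep them from clumping, and many use ATP to let the client fold, be moved or be handed to the proteasome. When misfolded protein builds up in the cytosol, heat shock factor 1 binds heat shock elements in promoters and raises the inducible Hsp70, Hsp90, Hsp110 and J protein genes, while in the endoplasmic reticulum the unfolded protein response raises BiP, GRP94, calreticulin and the disulfide isomerases through stress elements of their own. In neurons the constitutive Hsp70 Hsc70 and its J protein partners also strip clathrin from vesicles and guard the fusion machinery at the synapse.

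The promoter sequences are printed because they set apart the genes with the letters of either stress element, which are compared as groups further on. RefSeq promoters of the mouse build GRCm38.p6 were matched by symbol for 35 of the 45 genes (not Cryab, Dnajc5, Hsf1, Hsp90aa1, Hsp90ab1, Hspa13, Hspa8, Hspa9, Hyou1 and Manf). In the 250 bases before the start, on either strand, 7 of the 35 genes held the endoplasmic reticulum stress element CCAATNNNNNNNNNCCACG, which was found in 0.113% of 32851 mouse promoters. Here and below a gene was counted if any of its promoters matched, while the shares are of single promoters, so the units differ. The 7 were Calr, Canx, Creld2, Dnajc3, Hsp90b1 with 2 copies, Hspa5 and Pdia6, and all 7 code for proteins of the endoplasmic reticulum. The windows of 6 of them are printed, since that of Hspa5 lies within annotated exon sequence. They show the element in capitals with 20 bases on each side, read along the strand of the gene. In Calr and Creld2 the element lies on the other strand, so it reads CGTGG first and ATTGG last.
Hsp90b1, chr10:86705618-86705676, minus strand: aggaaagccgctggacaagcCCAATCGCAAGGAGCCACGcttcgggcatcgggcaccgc
Canx, chr11:50325780-50325838, minus strand: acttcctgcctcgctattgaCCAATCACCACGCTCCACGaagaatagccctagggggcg
Dnajc3, chr14:118937807-118937865, plus strand: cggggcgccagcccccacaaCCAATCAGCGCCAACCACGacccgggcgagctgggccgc
Pdia6, chr12:17266471-17266529, plus strand: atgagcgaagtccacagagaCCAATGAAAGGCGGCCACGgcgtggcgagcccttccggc
Calr, chr8:84847055-84847113, minus strand: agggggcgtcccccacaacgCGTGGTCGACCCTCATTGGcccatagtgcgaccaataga
Creld2, chr15:88819500-88819558, plus strand: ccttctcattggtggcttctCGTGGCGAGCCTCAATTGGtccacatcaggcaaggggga

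Heat shock elements are repeats of the unit GAA in alternating orientation. A pair of units, GAANNTTC or TTCNNGAA, stood in 9 of the 35 genes (Dnaja1, Dnajb4, Dnajb6, Hspa1a, Hspa1b, Hspb1, Hspd1, Hspe1 and Hsph1) and in 12.8% of all promoters. A run of 3 units, GAANNTTCNNGAA or TTCNNGAANNTTC, which always holds the pair, stood in Dnajb6, Hspd1 and Hspe1 and in 0.466% of all promoters. Hspd1 and Hspe1 match in the same stretch of chromosome 1, read on opposite strands. No gene held both a heat shock element and an endoplasmic reticulum stress element. The shorter string CCAAT alone, part of the stress element, was in 22 of the 35 and in 33.8% of all promoters. A match is a description of the letters and does not show that a factor binds there. The windows of the twin genes Hspa1a and Hspa1b are identical over the stretch printed, and that of Hspb1 holds a pair of matches.
Hspa1a, chr17:34972233-34972280, minus strand: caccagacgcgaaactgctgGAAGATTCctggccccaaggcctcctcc
Hspa1b, chr17:34959315-34959362, minus strand: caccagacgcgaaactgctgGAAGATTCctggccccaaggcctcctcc
Hspb1, chr5:135887782-135887829, plus strand: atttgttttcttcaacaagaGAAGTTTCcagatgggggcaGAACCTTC

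Library totals ran from 23090483 to 43668462 counts, and the mitochondrial share of counts from 0.982% to 4.81%. The labels number the libraries 1 to 23 with no number 7, and the numbers form 2 runs, 1 to 11 (6 controls and 4 stimulated mice, called the first run) and 12 to 23 (6 and 6, the second run). The study used 2 cohorts of animals as a batch, but the labels used here give neither cohort nor RNA integrity for a mouse, and whether the runs are the cohorts is not known here. The second run had a lower mitochondrial share than the first (mean 1.32% against 2.66%) and fewer counts (mean 29432274 against 35457916), and of all genes tested 68.1% differed between the runs at an adjusted p under 0.05, so the run is a term of the main fit. Ranges and medians of controls and stimulated mice pool both runs unless a run is named. Over both runs together, stimulated and control mice did not differ beyond their spread in total counts (two-sided permutation test, p = 0.287) or in mitochondrial share (permutation p = 0.208). In the first run stimulated mice had more counts (mean 38022704 against 33748057, exact permutation p = 0.0714), and in the second the p was 0.524. For mitochondrial share the exact permutation p was 0.40 in the first run and 0.162 in the second. Cortical excitatory neuron markers summed to between 1603 and 3675 CPM (counts scaled to library size) in every mouse, and striatal markers to between 191 and 330 CPM.

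The levels of the chaperones in the ACC spanned a wide range. Per kilobase of exon, Hsp90ab1, the constitutive cytosolic Hsp90, had the highest median over the 22 mice at 601 CPM per kilobase. Next came the endoplasmic reticulum Hsp70 Hspa5 (BiP) at 148, the disulfide isomerase Pdia3 at 139, the calcium-binding lectin chaperone Calr at 131 and the Hsp70-Hsp90 adaptor Stip1 at 114 CPM per kilobase. The constitutive Hsp70 Hspa8 (Hsc70) stood at 76.6 CPM per kilobase, and 52.7% of its 50-base windows, the length of a read, also occur in other genes, and since only uniquely aligned reads were counted its level is uncertain. Stress-inducible forms were spread over the range, with Hsph1 at 48.6, Hsp90aa1 at 47.6 and Dnajb1 at 33.6 CPM per kilobase. The share of windows found in other genes was 58.5% for Hsp90aa1 and 51.6% for Hspb1, so their levels are uncertain too. Hspa1a was at 1.23, Hspa1b at 2.84, the co-chaperone of protein clearance Bag3 at 2.22 and the small heat shock protein Hspb1 at 3.81 CPM per kilobase. Hsf2 stood at 0.825 CPM per kilobase, against 7.34 for Hsf1. With the longest transcript in place of the summed exons, an alternative chosen after seeing the data, Hsf2 was at 1.75, above Hspa1a at 1.23, and Calr at 173 passed Hspa5 at 171. Canx and Pdia6 then also passed Stip1, so these neighbours have no fixed order. Hspa1a and Hspa1b share 66.3% and 62.3% of their 50-base windows with other genes, chiefly with each other, so reads that match both were not counted and their levels are uncertain. All members summed to between 6558 and 9507 CPM in controls and between 7649 and 10685 CPM in stimulated mice, which overlap over most of their range.

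Repeated stimulation left no chaperone gene changed at an adjusted p under 0.05. With run and group as terms in edgeR (quasi-likelihood F), adjusted p over the 17524 genes lay between 0.402 and 0.999 for the 45 members, and of all genes tested 0% passed. At an unadjusted p under 0.05 there were 2 of 45 members, Hsf2 lower and Dnajb1 higher, beside 11.5% of all genes tested. With group as the only term it was 0 of 45, beside 3.61% of all genes. With a surrogate variable added to the run it was 8 of 45, 7 higher and 1 lower, beside 20.0% of all genes. DESeq2 and limma voom also gave 0 members at an adjusted p under 0.05, beside 0.188% and 0.00571% of all genes, and 2 and 4 members at an unadjusted one, beside 12.5% and 16.3%. The fold change was positive for 31 members and negative for 14, with a median of 0.05 on the log2 scale. Over all genes tested it was positive for 52.6%, and the median was 0.01. In the first run alone it was positive for 20 members and negative for 25, beside 51.2% of all genes positive. The estimates of the main fit were narrow. Standard errors ran from 0.05 to 0.19 with a median of 0.09, and the 95% interval lay within 0.5 on the log2 scale of no change for 44 of 45 members and within 0.3 for 30 of them. The exception was Cryab, whose interval reached down to -0.74. In both runs the stimulated and control mice overlapped for all 45 genes, and the share of all genes that did so was not counted here.

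**Figure D1:**
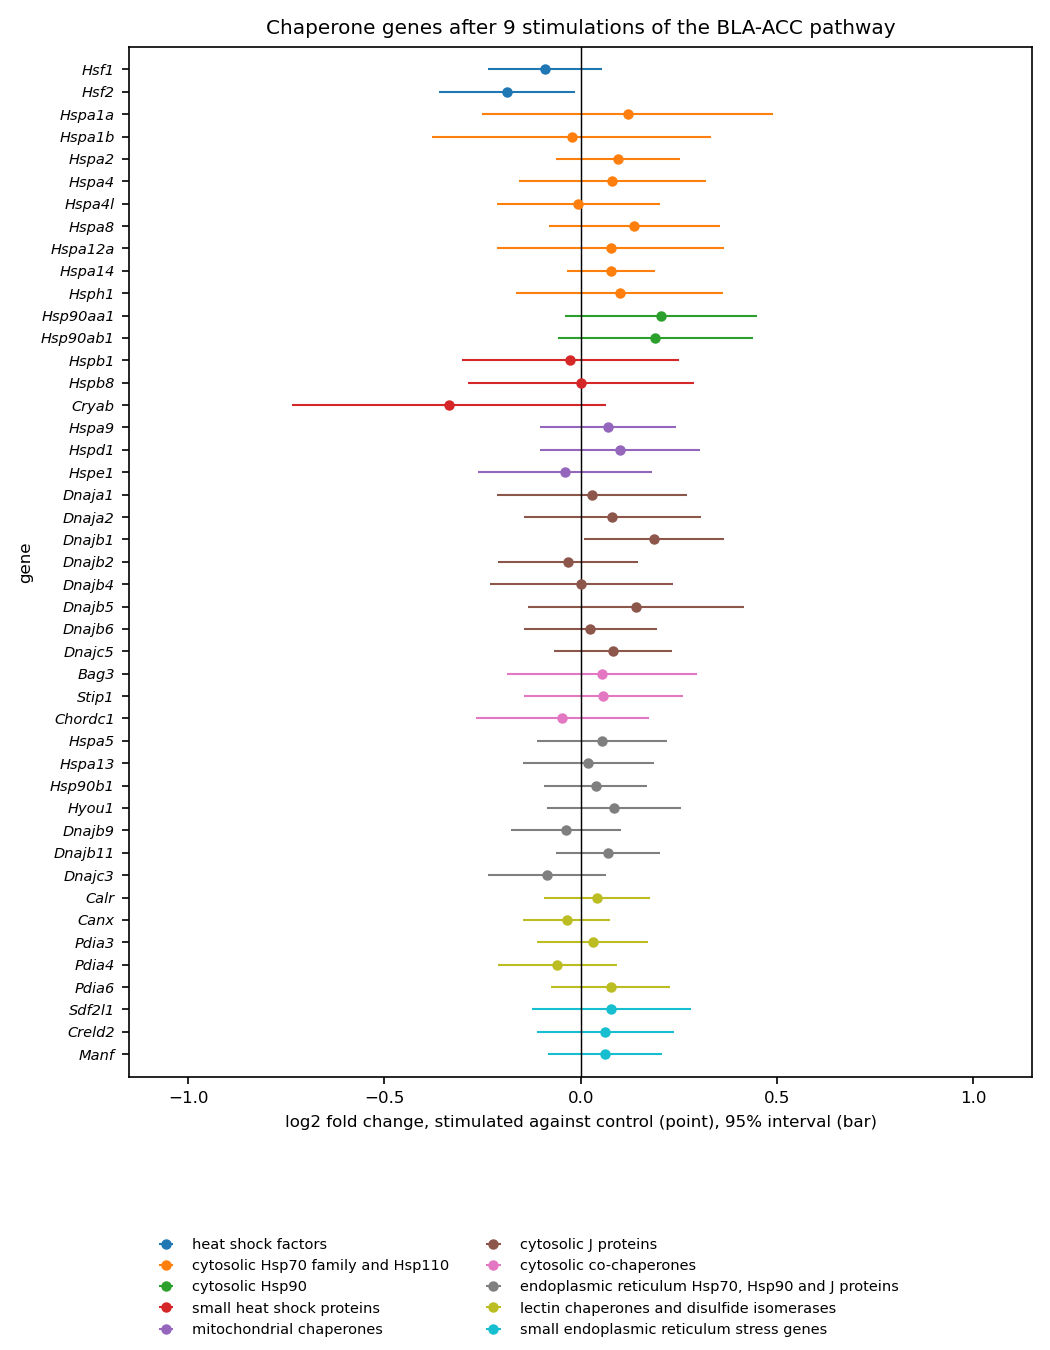
Log2 fold change of each of the 45 chaperone genes in 10 stimulated against 12 control mice (horizontal axis) from the fit with run and group, with its 95% interval as a bar and the functional class as the color. Of the 45 intervals, 43 cross 0, and those of Hsf2 (below) and Dnajb1 (above) do not.

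Of the heat shock factors, Hsf1, the master regulator of the cytosolic response, ranged from 43.9 to 67.5 CPM in controls with a median of 53.0, and from 43.8 to 57.7 CPM in stimulated mice with a median of 50.3. Its log2 fold change was -0.09 ± 0.07 (SE). Hsf2, a factor linked to development and to the tuning of Hsf1, ranged from 6.60 to 9.41 CPM in controls with a median of 8.33, and from 4.86 to 8.29 CPM in stimulated mice with a median of 7.56. All 10 stimulated mice lay under the control median of both runs together, and the groups still overlapped in each run. Hsf2 was higher in the second run by 0.21 ± 0.08 (SE) on the log2 scale. Stimulated mouse 4, at 7.86 CPM, lay over controls 1, 2, 3 and 6 of its own run. The log2 fold change of Hsf2 was -0.19 ± 0.08 (SE; edgeR, unadjusted p = 0.0329, adjusted p = 0.402). Without stimulated mouse 1, which was the lowest, it was -0.14 with an unadjusted p of 0.0863.

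The inducible Hsp70 genes Hspa1a and Hspa1b, the classic targets of Hsf1, lie side by side on chromosome 17 (Hspa1a at 34969190 to 34972156 and Hspa1b at 34956436 to 34959238, GRCm38). Hspa1a ranged from 1.91 to 5.21 CPM in controls with a median of 3.44 and from 2.05 to 4.68 CPM in stimulated mice with a median of 3.83. Hspa1b ranged from 5.22 to 11.6 CPM in controls with a median of 7.95 and from 5.45 to 12.9 CPM in stimulated mice with a median of 7.97. The groups covered the same range for both genes. The log2 fold change was 0.12 ± 0.18 (SE) for Hspa1a and -0.02 ± 0.17 (SE) for Hspa1b. Their 95% intervals in the main fit ended at 0.49 and 0.33, so a rise of 0.5 on the log2 scale lay outside both, for Hspa1a only narrowly. For Hspa1a limma voom gave 0.20 ± 0.16 (SE) and the fit without controls 9 and 11 gave 0.15 ± 0.19, and no such bound is claimed from those fits. These were the rarest Hsp70 transcripts, with 49 counts of Hspa1a in the mouse that had fewest. They also varied most between mice after Cryab, with a residual SD of 0.44 and 0.43 on the log2 scale, while Hspa14 had 0.11.

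The cytosolic Hsp90 genes and Hspa8 had positive fold changes that did not pass the test. Hsp90ab1 ranged from 1262 to 2433 CPM in controls with a median of 1654 and from 1380 to 2262 CPM in stimulated mice with a median of 2022. Hsp90aa1, its inducible partner, ranged from 108 to 252 CPM in controls with a median of 167 and from 137 to 258 CPM in stimulated mice with a median of 199. For each, 8 of 10 stimulated mice lay over the control median of both runs together, and the ranges overlapped nearly throughout. The log2 fold change was 0.19 ± 0.12 (SE) for Hsp90ab1 and 0.20 ± 0.12 (SE) for Hsp90aa1, and 0.14 ± 0.10 (SE) for Hspa8. With the surrogate variable the unadjusted p of these 3 genes was 0.00311, 0.0130 and 0.0323. The other Hsp70 and Hsp110 genes, Hspa2, Hspa4, Hspa4l, Hspa12a, Hspa14 and Hsph1, gave between -0.01 and 0.10. Of the 9 cytosolic Hsp70 and Hsp110 genes, 7 had a positive fold change, and the median was 0.08.

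Dnajb1, the J protein that hands clients to Hsp70 and is itself a heat shock gene, ranged from 83.4 to 133 CPM in controls with a median of 98.1, and from 83.8 to 139 CPM in stimulated mice with a median of 115. Stimulated mice lay over the control median of both runs together in 8 of 10 cases. The log2 fold change was 0.19 ± 0.09 (SE; edgeR, unadjusted p = 0.0377, adjusted p = 0.412), and it was 0.14 in the first run and 0.20 in the second. Adding the mitochondrial share to the fit brought it to 0.11 with an unadjusted p of 0.119. The other 7 cytosolic J proteins (Dnaja1, Dnaja2, Dnajb2, Dnajb4, Dnajb5, Dnajb6 and Dnajc5), among them the synaptic vesicle protein Dnajc5 (cysteine string protein), did not pass at an unadjusted p of 0.05, and the class of 8 had a median fold change of 0.05, from -0.03 in Dnajb2 to 0.19 in Dnajb1. Dnajb2 was highest in controls 9 and 11 (169 and 148 CPM), and without them it gave 0.10 ± 0.06 (SE). The co-chaperones Bag3, Stip1 and Chordc1 gave 0.05 ± 0.12, 0.06 ± 0.10 and -0.05 ± 0.11 (SE).

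**Figure D2:**
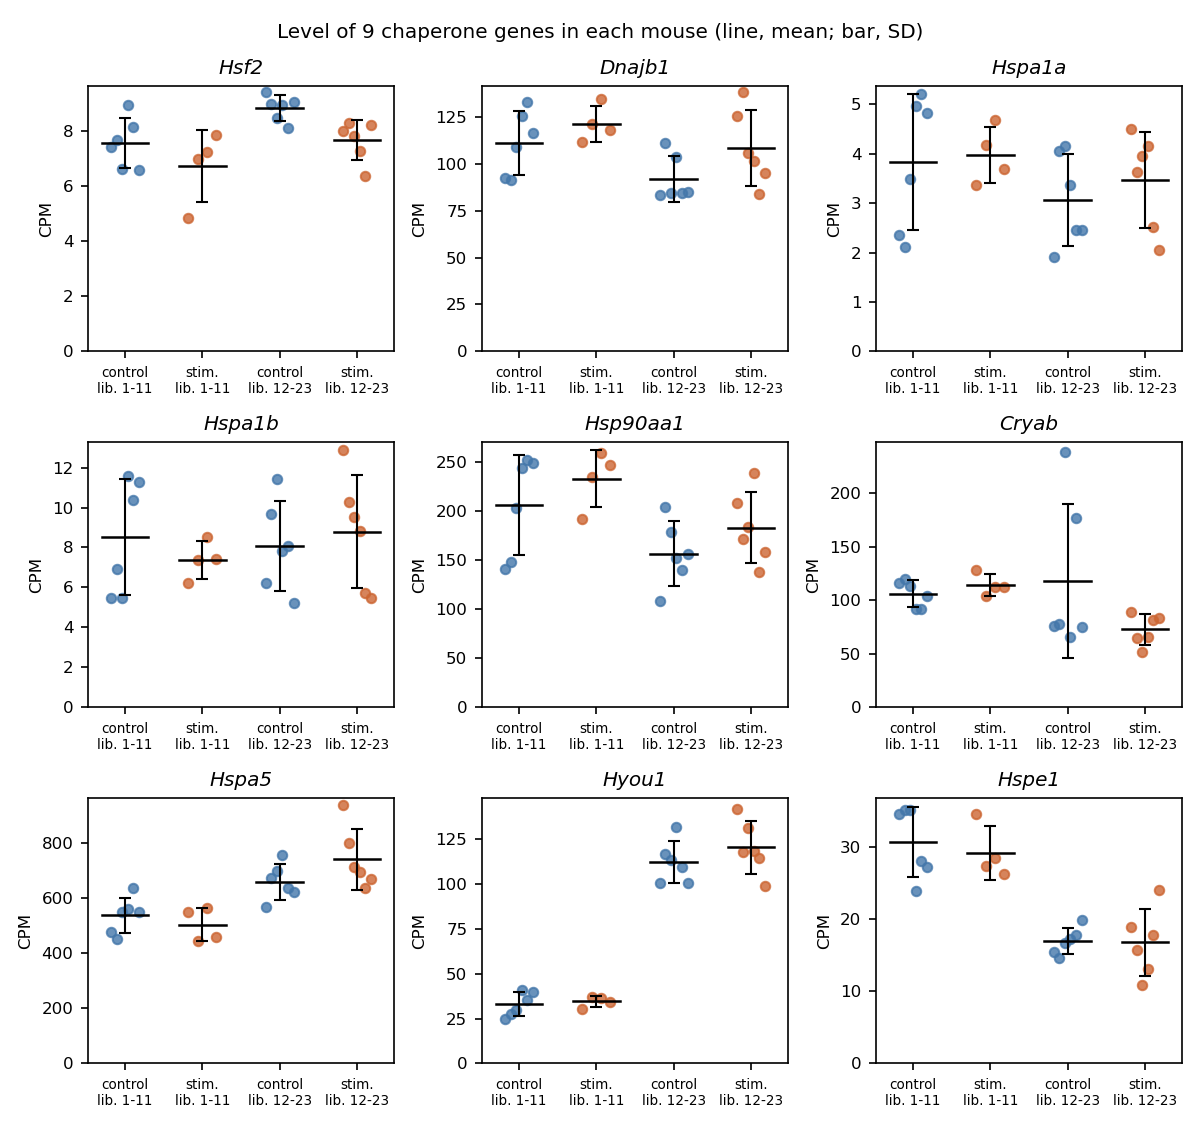
CPM of 9 chaperone genes in each mouse (points), with the mean and SD, for controls and stimulated mice of library numbers 1 to 11 and 12 to 23; each vertical axis starts at 0. Stimulated and control mice overlap in every panel, while Hyou1 parts by run without overlap, Hspe1 parts by run apart from 1 mouse and Cryab is high in a pair of controls.

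In the endoplasmic reticulum, none of the 15 genes passed at an unadjusted p of 0.05, and the median fold change was 0.04, with 11 positive and 4 negative. The estimates by run went opposite ways, a difference that was not tested for the list, with 4 positive, 11 negative and a median of -0.08 in the first run and 11 positive, 4 negative and a median of 0.08 in the second, and without stimulated mouse 5 the median was 0.01. Hspa5, the Hsp70 of that compartment and the sensor that keeps the unfolded protein response silent, ranged from 452 to 757 CPM in controls with a median of 592 and from 445 to 937 CPM in stimulated mice with a median of 652. Its log2 fold change was 0.05 ± 0.08 (SE), with a 95% interval from -0.11 to 0.22. Hsp90b1 (GRP94) gave 0.04 ± 0.06 (SE), and Sdf2l1, Creld2 and Manf, small genes that rise steeply under stress of the endoplasmic reticulum, gave 0.08 ± 0.10, 0.06 ± 0.08 and 0.06 ± 0.07 (SE). The remaining genes of the compartment, the Hsp70 kin Hspa13 and Hyou1, the J proteins Dnajb9, Dnajb11 and Dnajc3, the lectin chaperones Calr and Canx and the disulfide isomerases Pdia3, Pdia4 and Pdia6, gave between -0.09 and 0.08. The 7 genes with an endoplasmic reticulum stress element had a median of 0.04 and the 9 with a heat shock element a median of 0.02, and none of these 16 genes passed at an unadjusted p of 0.05. By run, the stress element genes had a median of -0.08 (0 positive, 7 negative) and 0.09 (5 positive, 2 negative), and the heat shock element genes -0.06 (3 positive, 6 negative) and 0.13 (7 positive, 2 negative). Of all 17524 genes tested, 51.2% were positive in the first run and 8762 genes in the second. The stimulation effect of the second run minus that of the first was positive for 57.9% of all genes, with a median of 0.04. Among the 15 genes of the compartment this difference was positive for 13 and negative for 2. Among the mitochondrial chaperones, Hspd1 (Hsp60) ranged from 49.8 to 91.4 CPM in controls and from 56.4 to 84.9 CPM with stimulation, which is 0.10 ± 0.10 (SE) in log2 fold change. Its co-chaperonin Hspe1 (Hsp10) gave -0.04 ± 0.11 (SE) and Hspa9 (mortalin) 0.07 ± 0.08 (SE).

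Cryab, alpha-B-crystallin, is a small heat shock protein that oligodendrocytes and astrocytes hold in quantity. In the first run it ranged from 92.0 to 120 CPM in controls with a median of 109, and was 128, 104, 112 and 113 CPM in the 4 stimulated mice. In the second run it ranged from 65.7 to 238 CPM in controls with a median of 76.9 and from 51.4 to 89.3 CPM in stimulated mice with a median of 73.9. The 238 and the next value, 177 CPM, belonged to controls 9 and 11, and the other 4 controls of that run lay at 65.7 to 77.7 CPM, inside the range of the stimulated mice. The log2 fold change was -0.34 ± 0.19 (SE) over all mice, 0.12 ± 0.10 in the first run, -0.74 ± 0.29 in the second (unadjusted p = 0.0204), and 0.05 ± 0.08 without controls 9 and 11. Those 2 mice also had the highest sum of 12 oligodendrocyte markers, 20011 and 14724 CPM, where the other 20 mice lay between 2393 and 6365 CPM. All 12 markers were lower in stimulated mice at an unadjusted p under 0.05, by a median of -0.69 on the log2 scale, and 0 of 12 at an adjusted p. In the first run 7 of the markers were higher and 5 lower with none at an unadjusted p under 0.05 and a median of 0.00, in the second all 12 were lower at that level with a median of -1.31, and without controls 9 and 11 the median was -0.11 with 2 lower at that level. The other small heat shock proteins, Hspb1 and Hspb8, which hold unfolded clients without ATP, gave -0.03 ± 0.13 and -0.00 ± 0.14 (SE). Hspb8 ranged from 16.3 to 37.0 CPM in controls with a median of 22.6 and from 17.0 to 34.1 CPM in stimulated mice with a median of 23.5. In bulk tissue fewer cells of a type and less RNA per cell cannot be told apart, and the part of the marker level in the Cryab value was not tested. Exons of Cryab also overlap those of Hspb2 on the opposite strand, and whether reads were counted by strand is not given in the sources used here.

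Within the first run 0 of 45 members reached an unadjusted p under 0.05, beside 5.56% of all genes, and within the second 2 did, Hsf2 (-0.24 ± 0.10) and Cryab, both lower, beside 12.4%. The median fold change of the members was -0.02 in the first run and 0.08 in the second. The difference of the stimulation effect between the runs was tested as an interaction. At an unadjusted p under 0.05 there were 3 of 45 members, beside 8.01% of all genes, and none at an adjusted p in edgeR, DESeq2 or limma voom. The 3 were Cryab, Hspa13 and Pdia3. Hspa13, an Hsp70-like protein of the secretory path, gave -0.17 in the first run and 0.15 in the second, and Pdia3, the disulfide isomerase that works with calnexin and calreticulin, gave -0.14 and 0.14.

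Between the runs of libraries many chaperones differed. At an adjusted p under 0.05 (edgeR), 30 of 45 members differed between the runs, beside 68.1% of all genes, a share near the background. In the second run 17 were higher, beside 33.7% of all genes, by 0.21 to 1.78 on the log2 scale, and 13 were lower, beside 34.3%, by -0.83 to -0.22. Hyou1, the large Hsp70-like nucleotide exchange partner of BiP, moved most. It ranged from 25.0 to 41.2 CPM in the first run with a median of 35.0 and from 98.8 to 142 CPM in the second with a median of 116, with no overlap, a log2 difference of 1.78 ± 0.08 (SE). Dnajb5 (41.2 to 75.3 against 72.3 to 155 CPM, 1.01 ± 0.13) and Hspa12a (56.2 to 115 against 108 to 231 CPM, 0.82 ± 0.14), and the disulfide isomerase Pdia4 (78.2 to 117 against 133.9 to 194 CPM, 0.66 ± 0.07) were next. The runs also did not overlap for Pdia4, the lectin chaperone Canx and Dnajc5, and the share of all genes without overlap was not counted here.

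The lower side was led by Hspe1, which ranged from 23.9 to 35.2 CPM in the first run with a median of 28.4 and from 10.9 to 24.1 CPM in the second with a median of 17.0, a difference of -0.83 ± 0.10 (SE). Only 1 mouse of the second run, stimulated mouse 10 at 24.1 CPM, reached the lowest of the first. Hspb1 (3.12 to 6.65 against 2.34 to 4.52 CPM, -0.54 ± 0.13), Dnajb6 (16.2 to 22.4 against 10.7 to 17.0 CPM, -0.49 ± 0.08) and Dnaja1 (98.8 to 186 against 68.1 to 149 CPM, -0.46 ± 0.12) followed with overlapping runs. These last 3 carry many windows shared with other genes (51.6%, 42.8% and 28.8%). By compartment, the cytosolic Hsp70 genes split 5 higher and 1 lower, both Hsp90 genes were lower, and all of Sdf2l1, Creld2 and Manf were lower while Hspa5, Hsp90b1, Hspa13, Hyou1 and Dnajc3 were higher. The J protein Dnajb9, of the same class as those 5, was lower (-0.22 ± 0.07).

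Gene length went with that split. The 17 higher genes had a median summed exon length of 5528 bases, the 13 lower genes 3204 and the 15 others 2975. Across the 45 genes the run difference and exon length had a Spearman rho of 0.44, and across 17516 of the genes tested it was 0.62, while the rho with GC content was -0.14 and -0.00. Genes share libraries and are not independent replicates, so these are descriptions. Mitochondrial share moved with the run as well. With it as a term 30 members passed, beside 61.3% of all genes, 11 higher beside 31.4% and 19 lower beside 29.9%, and 22 of the first 30 kept their call and sign. With a surrogate variable as a term 25 passed, beside 34.9% of all genes, 4 higher beside 17.3% and 21 lower beside 17.6%. In that fit 9 of the first 30 kept their call and sign and 11 changed sign, Hspe1, Hspa12a and Dnajb5 among them, and 7 of the 11 passed the other way, while Hyou1 stayed higher at 0.67 ± 0.22. The part of length and mitochondrial share in the run difference was not tested, and the run cannot be told apart from cohort or library preparation.

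**Figure D3:**
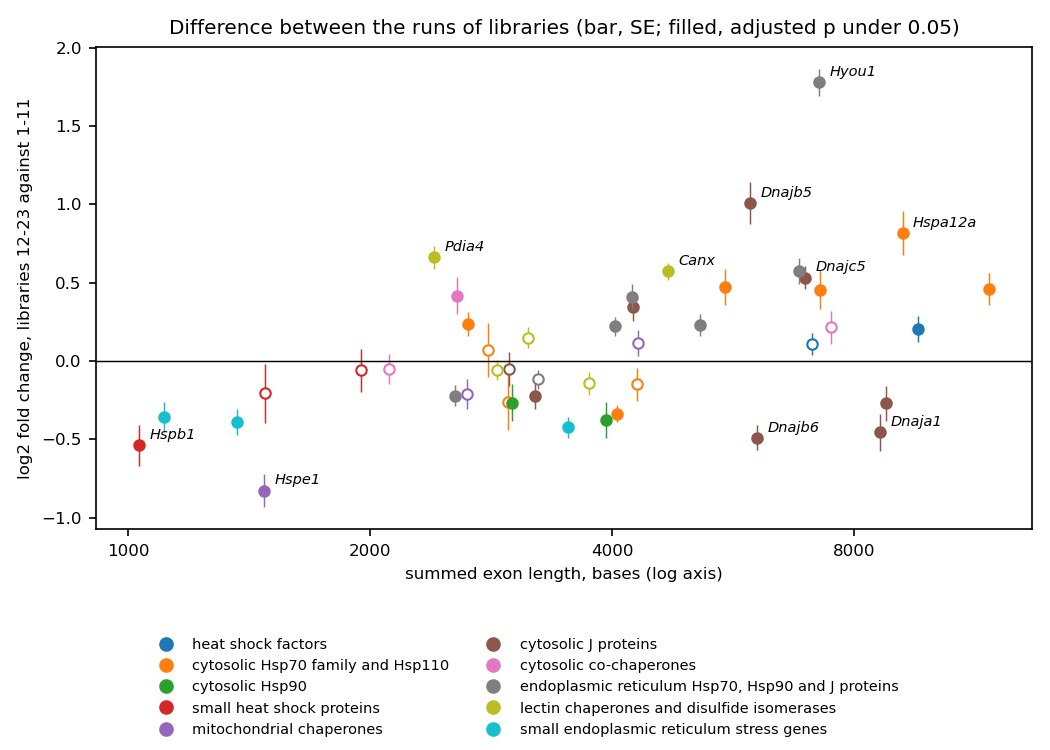
Log2 difference of library numbers 12 to 23 against 1 to 11 for the 45 genes (vertical axis, bar SE) against summed exon length in bases on a log axis, colored by class; filled points passed an adjusted p of 0.05. Hyou1 stands at 1.78, and the shortest genes, Hspb1, Sdf2l1, Creld2 and Hspe1, lie below 0.

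Levels of partner chaperones were compared across mice. In each run, after removing the group means, 7 pairs were correlated over 10 and 12 mice, which gives 28 permutation tests with Pearson's r and Spearman's rho, adjusted together. Hsph1 (Hsp110) and Dnajb1, partners in the Hsp70 cycle, had r = 0.95 (rho 0.94) in the first run and 0.71 (rho 0.75) in the second, with adjusted permutation p of 0.00112 and 0.0145 for r. Hsp90aa1 and Hspa8 had r = 0.95 (rho 0.90) and 0.87 (rho 0.85), with adjusted permutation p of 0.00126 and 0.00154. Without the 2 mice farthest from the median of the first gene, r was 0.88 and 0.60 for the former pair (permutation p = 0.00662 and 0.0686) and 0.85 and 0.80 for the latter (permutation p = 0.00659 and 0.00475). Leaving out outer mice narrows the range and the number of mice, and the second-run relation of Hsph1 and Dnajb1 was then not past 0.05.

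Positive correlations were also found among the endoplasmic reticulum genes. Hspa5 and Hsp90b1, whose promoters both hold the stress element, had r = 0.89 (rho 0.78) and 0.71 (rho 0.64), with adjusted permutation p of 0.0028 and 0.0145, and 0.81 and 0.55 without 2 mice (permutation p = 0.0179 and 0.0966). Sdf2l1 and Creld2 had r = 0.80 (rho 0.82) and 0.78 (rho 0.72), with adjusted permutation p of 0.0125 and 0.00899, and 0.78 and 0.63 without 2 mice (permutation p = 0.0169 and 0.0510). For both pairs the relation of the second run was then not past 0.05. Across the compartments, Hsph1 and Hspa5 had r = 0.69 (rho 0.56) and 0.73 (rho 0.65), with adjusted permutation p of 0.0338 and 0.0125 for r and 0.103 and 0.0320 for rho, and the first fell to 0.40 without 2 mice (permutation p = 0.319). Hspa1a and Hspa1b had r = 0.81 (rho 0.78) and 0.88 (rho 0.86), with adjusted permutation p of 0.0125 and 0.00162, and 0.84 and 0.85 without 2 mice, but these twins share most of their sequence, so their counts are not separate measures.

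Hspd1 and Hspe1 had a negative correlation. Hsp60 and Hsp10 form one folding chamber and are transcribed in opposite directions from a common start region on chromosome 1 (55077835 to 55088243 on the minus strand and 55088132 to 55091307 on the plus strand, GRCm38). Both promoters hold the 3-unit heat shock element, in the same stretch of bases. The levels of Hspd1 and Hspe1 ran against each other over the mice of the first run (r = -0.81, rho -0.72, adjusted permutation p = 0.0125 and 0.0295), and r was -0.72 without 2 mice (permutation p = 0.0598), again not past 0.05. In the second run r was -0.44 (rho -0.42, adjusted permutation p = 0.165 and 0.177) and -0.43 without 2 mice. Controls 1 and 2 had 57.3 and 54.7 CPM of Hspd1, the lowest of the first run, and 34.7 and 35.1 CPM of Hspe1, close to its highest. Those 2 mice also had the highest mitochondrial share, 4.41% and 4.81%. Summed exon length was 2642 bases for Hspd1 and 1474 for Hspe1, 44.8% of the 50-base windows of Hspd1 also occur in other genes, and the pair overlaps by 112 exon bases on opposite strands. The part of each in the relation was not tested.

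**Figure D4:**
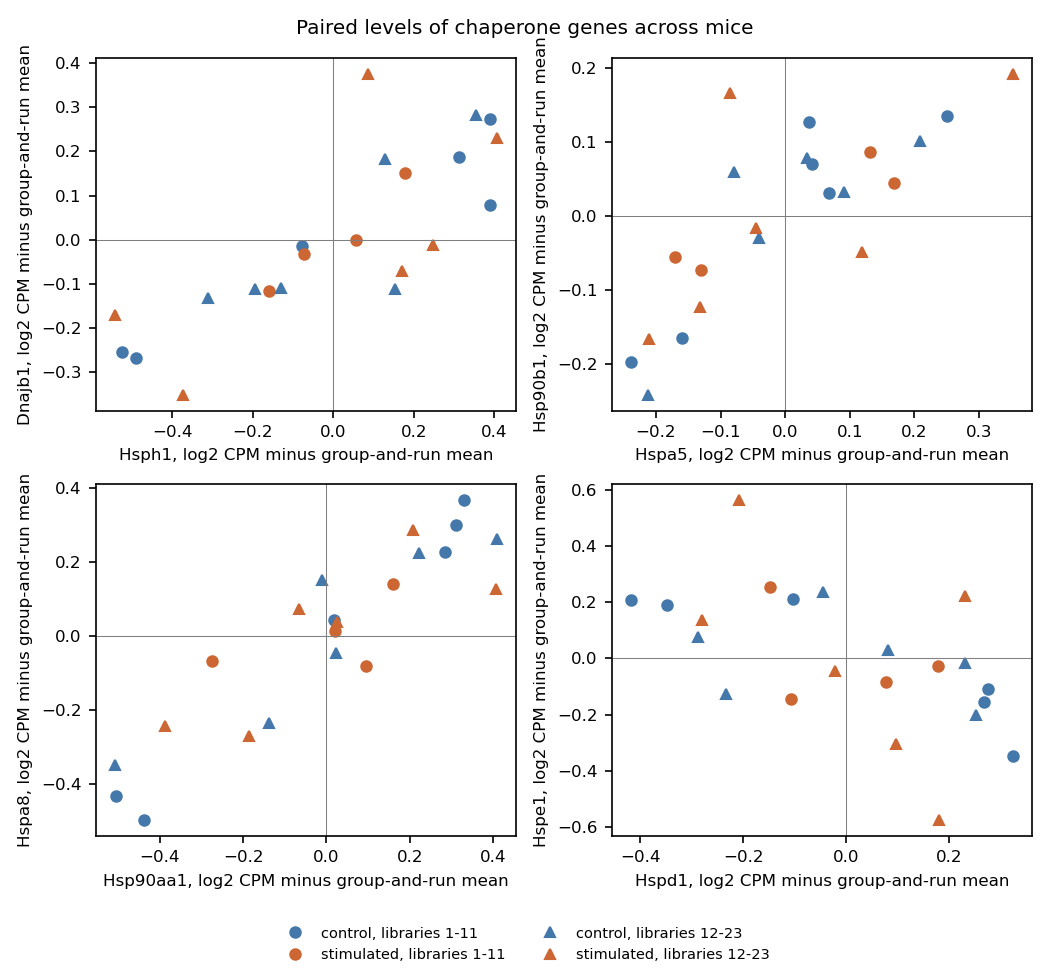
Log2 CPM of 4 gene pairs across 22 mice, each value minus the mean of its group and run; circles are library numbers 1 to 11, triangles 12 to 23, blue controls and orange stimulated mice. Hsph1 and Dnajb1, Hspa5 and Hsp90b1, and Hsp90aa1 and Hspa8 rise together. Hspe1 falls as Hspd1 rises in library numbers 1 to 11 (r = -0.81), while in 12 to 23 the relation was weaker (r = -0.44) and did not pass the permutation test.

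Single mice stood out across many chaperones at once, a reading chosen after their values were seen. Stimulated mouse 5 was the highest of the 12 mice of the second run in 11 of 15 endoplasmic reticulum genes, by a median of 0.32 on the log2 scale over the median mouse, while it was the highest in 9.64% of all genes tested. It had 937 CPM of Hspa5 and the deepest library, 43668462 counts, with a mitochondrial share of 1.01%. Control 7 was the lowest of that run in 16 of 45 members, against 11.4% of all genes. In the first run controls 1 and 2 were the lowest in 11 and 13 of 45 members, against 12.6% and 15.6% of all genes, and controls 5 and 4 the highest in 12 and 10, against 8.41% and 10.9%. Without stimulated mouse 5 the median fold change of the members was 0.02 and Hsf2 alone had an unadjusted p under 0.05, and without control 7 it was 0.03 with none.

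**Figure D5:**
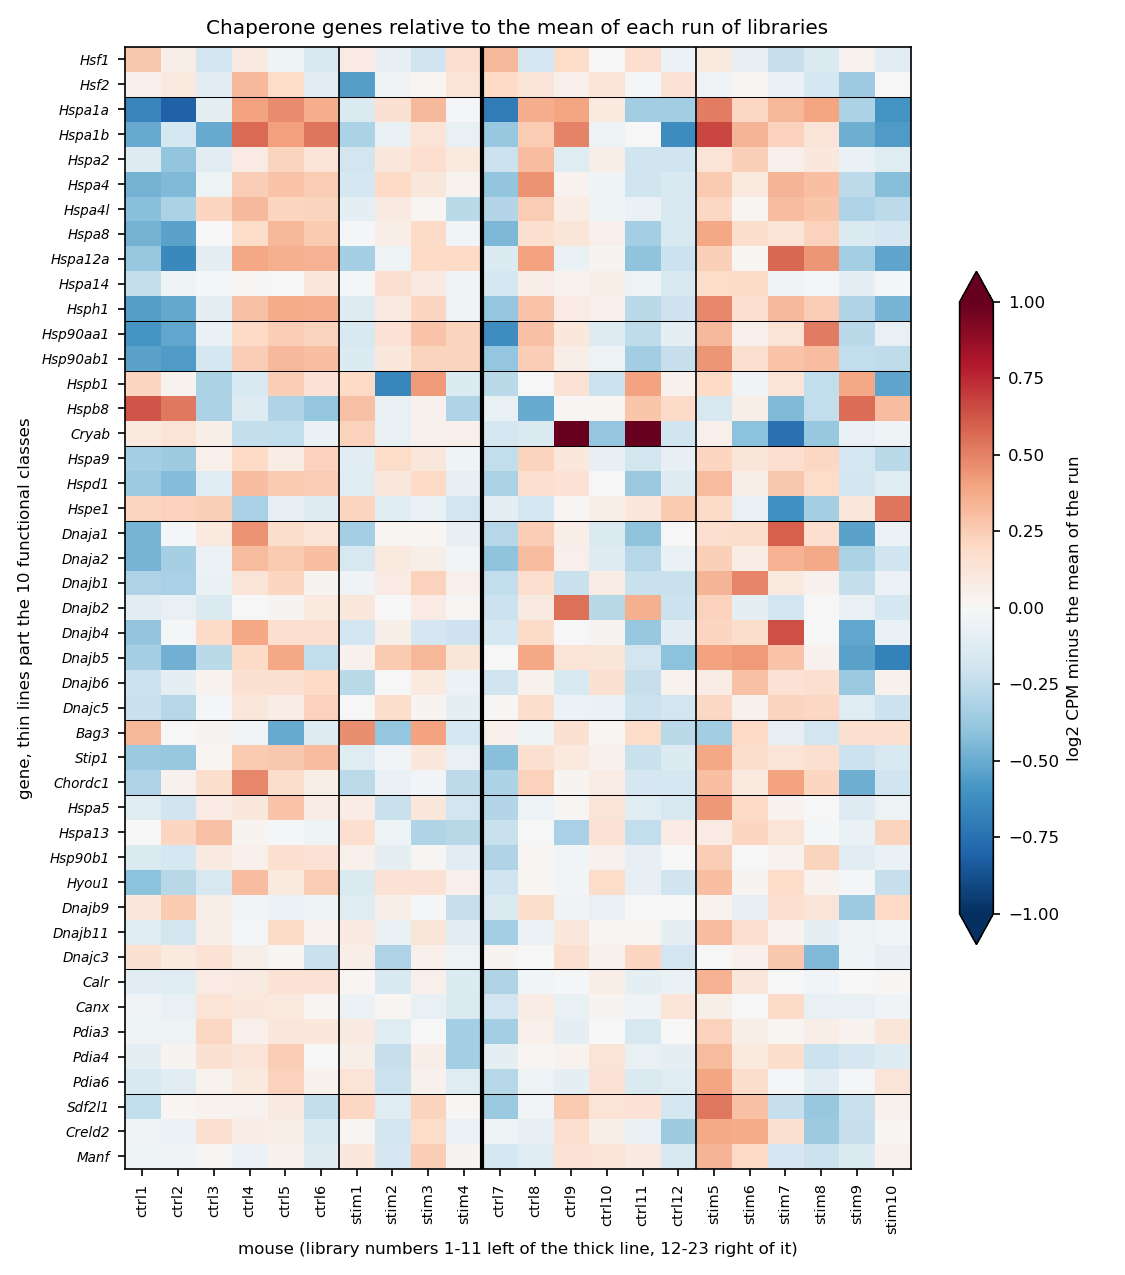
Log2 CPM of the 45 genes (rows, parted by class) in the 22 mice (columns, controls left of stimulated mice in each run) minus the mean of the run; the color scale ends at 1 in either direction. Controls 1 and 2 are low and controls 4 and 5 high in most cytosolic rows, stimulated mouse 5 is high in most endoplasmic reticulum rows, and Cryab is high in controls 9 and 11.

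Partners of these chaperones were taken from lists by function and read against the same 11.5% of all genes. Of the 8 subunits of the TRiC chaperonin, which folds actin and tubulin, 2 were higher in stimulated mice at an unadjusted p under 0.05, and the fold change was positive for all 8 with a median of 0.11. They were Cct5 (0.17 ± 0.06) and Cct7 (0.15 ± 0.07). Among 16 other co-chaperones of Hsp90 and Hsp70, those that were higher included Stub1 (0.13 ± 0.05), the ubiquitin ligase that marks Hsp70 clients. Of 19 sensors and effectors of the unfolded protein response 1 was higher, Os9 (0.13 ± 0.06). Of 15 other folding genes of the endoplasmic reticulum, 2 were higher, Erp29 and Txndc5, and of 10 genes of mitochondrial protein quality control 0 in either direction. None of these lists held a gene at an adjusted p under 0.05, and none held one that was lower at an unadjusted p. Between the runs all 8 TRiC subunits were lower in the second, as were 11 of the 16 co-chaperones, with 3 higher, at an adjusted p under 0.05 in edgeR, beside 34.3% of all genes lower and 33.7% higher.

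Markers of other cell types were counted in the same fit, in which 11.5% of all genes had an unadjusted p under 0.05. Of 11 neuron markers 2 were higher and 1 lower in stimulated mice at an unadjusted p under 0.05, of 8 cortical excitatory markers 1 and 1, of 8 striatal, 10 astrocyte, 8 microglia and 5 red cell markers 0, of 8 oligodendrocyte progenitor markers 1 lower, and of 10 endothelial and mural markers 1 lower. Of 4 choroid and ependymal markers tested 3 were lower, and the sum of the list reached 136 CPM in 1 control of the first run and 18.1 CPM at most in stimulated mice. None passed at an adjusted p. Their part in the small chaperone differences was not tested.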

How the data were processed

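Bulk ACC RNA of 22 mice was sequenced from 5 ng per library (SMARTSeq v4, 50-base single-end reads). The authors trimmed with cutadapt 1.10, aligned with STAR 2.5.3a to the mouse genome mm10 with Ensembl 95, and counted uniquely aligned reads with HTSeq 0.6.1p1. The deposited table holds raw counts per gene and a set of normalized signal columns, which the authors made with DESeq2 size factors and which were not used here. Its columns of the authors' own comparison (fold changes and p-values) were not used either.

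Raw counts were tested with edgeR 4.0.16 (TMM, quasi-likelihood test, R 4.3.3), with group and run of library numbers as terms, on genes reaching 10 counts in 10 mice or more, and p was adjusted by Benjamini-Hochberg over all of them. The study's own fit used DESeq2 with RNA integrity and batch, which the labels do not give and which were not used here. SE is the size of the log2 fold change divided by the root of F. Intervals are at 95% with 19 residual degrees of freedom. CPM used TMM library sizes, and log2 CPM a prior count of 2. Each p describes the spread between separate mice. The reads carried no molecular identifiers. All 231 pairs of libraries differed beyond sampling noise. Scripts were tested on simulated data.

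The members and all gene lists were chosen with earlier results of these data known. Given by mouse were the heat shock factors, Hspa1a and Hspa1b, members at an unadjusted p under 0.05, the 6 with the largest residual SD, and the 4 highest and 4 lowest between runs, and from each list at most 3 genes with the smallest p. Most other members are named as values of their class, while Hsp90ab1, Hsp90aa1, Hspa5 and Hspd1 were given with ranges outside this rule. The mice that stood out were picked after their values were seen. Alternatives were group alone, a replicate block, DESeq2 1.42.0 and its size factors, limma 3.58.1 voom with sample weights, other count minimums, 1 surrogate variable (sva 3.50.0), mitochondrial share, each run alone, no controls 9 and 11, and each mouse left out. Same-numbered mice of the groups did not all deviate together (correlation over 0.1 in 8 of 10 pairs, and in 3 within runs), so numbers were not treated as pairs. Exon lengths, overlaps and shared 50-base windows came from GENCODE M21 on GRCm38, in which 37772 of 37786 gene IDs matched. Ero1a and Ero1b had no entry under those symbols and were not analysed here. The values of 1 gene of a list are not reported here.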

Additional observations from a re-analysis of the deposited data

Results flagged for a closer look

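Hsf2 in stimulated mouse 1 lay far from the other stimulated mice, at 4.86 CPM where the other 9 ranged from 6.37 to 8.29 CPM. Calr in stimulated mouse 5 lay far above the rest, at 479.8 CPM where the other 9 ranged from 351.2 to 407.5 CPM. Each stands apart by Dixon's test at the 95% level on the log2 scale (ratios 0.506 and 0.523), not on the CPM printed. Chance passes that level in about 1 of 20 groups, and 45 genes were looked at in the stimulated group. The 12 controls were not screened this way.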

How the results depend on the processing

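The count of members at an unadjusted p under 0.05 for stimulation, 2, was 0 with group alone (3.61% of all genes), 0 with the replicate block (7.37%), 4 with limma voom (16.3%), 1 with no count minimum (9.81%), 8 with a surrogate variable (20.0%), 1 with mitochondrial share (10.6%), 0 in library numbers 1 to 11 alone (5.56%) and 1 without controls 9 and 11 (8.16%), and it ranged from 0 to 3 as each mouse was left out, being 0 without control 7. No member passed at an adjusted p for stimulation in any of these fits, or for the difference of the stimulation effect between runs in those that could hold it (not group alone, the replicate block or either run alone). The count of members that differed between runs, 30, ranged from 28 to 33 as each mouse was left out and from 25 to 33 in the other fits, but with the surrogate variable 9 of the 30 kept call and sign. The median fold change of 0.05 ranged from 0.02 to 0.08 as each mouse was left out, with -0.00 under mitochondrial share and -0.02 in the first run. The replicate block changed no adjusted call, and the fold change was -0.16 for Hsf2 and 0.11 for Dnajb1, both no longer past the unadjusted threshold. Hsf2 lost it in 4 and Dnajb1 in 9 of 22 fits without a mouse. Hspa12a was past it only with the surrogate variable (0.11), and Cryab only in library numbers 12 to 23 (-0.74). The cause of these shifts was not tested. Depth limits the rarest genes, with 49 counts of Hspa1a and 71 of Hspb1 in the lowest mouse. A smaller prior count left each correlation the same to 2 decimals.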
